A study of Mus musculus with 9 samples.

Results

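The genes described here are 32 enzymes and regulators of cholesterol and fatty acid synthesis. They were taken from a list of gene symbols, as the probe sets whose only symbol in the platform annotation was on the list, with the brightest probe set kept for each gene. All 32 were found among the 19938 genes with a single symbol. By role they fall into 7 enzymes from the mevalonate steps to squalene, 10 enzymes from squalene to cholesterol, 5 genes of sterol sensing and transport, 4 genes that supply carbon and build fatty acids, and 6 genes that elongate or desaturate them.

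The levels came from Affymetrix mouse gene arrays of 3 sorted mouse cell populations with 3 biological replicates each, 9 arrays in all. All populations came from CX3CR1 gfp+/- mice, in which 1 copy of the fractalkine receptor gene carries a green fluorescent protein reporter, so none of them is a wild type. T cell zone macrophages (TZM) were sorted from lymph nodes as GFP-high, MertK+, CD11b+ and CD169- cells. Microglia were GFP-high, CD11b+ and CD45+ cells of the brain, a gate that does not by itself separate microglia from other brain macrophages. CD8a+ dendritic cells (DC) were sorted as CD8a+ and CD64- cells with high CD11c and high MHC class II. Their organ is not settled, since lymph node stands in the sample fields while splenic cells are named where sorting is described. The labels give neither age, sex nor the number of animals per replicate, and where replicates do not come from separate animals the p-values measure only the spread between these samples. None of the 32 genes encodes a sort marker.

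Cholesterol is built in the endoplasmic reticulum from acetyl-CoA through mevalonate, isoprenoid units and squalene, and most enzymes of the route are switched on by the transcription factor SREBP-2, the product of Srebf2. When sterols are scarce, the escort protein SCAP carries SREBP-2 to the Golgi, where proteases release its active part. When sterols are plentiful, INSIG proteins hold SCAP back. Fatty acid synthesis uses the same carbon source, is driven more by SREBP-1 and the oxysterol receptor LXR, and feeds elongases and desaturases that set chain length and double bonds. Macrophages that take up dying cells also receive cholesterol and fatty acids from them.

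The stretches upstream of the start sites are shown for Hmgcs1, which was not called, and for 6 called members, all chosen also for a motif match. They are shown because synthesis genes of this kind are known to carry a sterol regulatory element and boxes bound by the factor NF-Y. Sequences are RefSeq's, build GRCm38.p6, written 5′ to 3′ on the gene's strand up to the base before the start site, and promoter sequences were found for 26 of the 32 genes. Capitals mark matches on either strand to TCACNCCAC, a core of the sterol regulatory element, and to CCAAT, the NF-Y box (ATTGG on the other strand). Hmgcs1 is shown over the last 200 bases (chr13:119690151-119690350, plus strand) because it held the only TCACNCCAC match among the 26 genes.
Hmgcs1: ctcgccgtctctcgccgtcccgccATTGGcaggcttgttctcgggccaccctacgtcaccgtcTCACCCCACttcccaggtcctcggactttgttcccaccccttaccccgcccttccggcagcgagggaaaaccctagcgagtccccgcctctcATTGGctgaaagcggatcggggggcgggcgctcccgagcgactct
The next 6 are the genes called in at least 1 comparison that have 1 listed start site and a CCAAT match within 150 bases before it. They are Idi1 (chr13:8885456-8885605, plus), Cyp51 (chr5:4104698-4104847, minus), Nsdhl (chrX:72918371-72918520, plus), Srebf2 (chr15:82147119-82147268, plus), Fasn (chr11:120824548-120824697, minus) and Elovl5 (chr9:77917215-77917364, plus).
Idi1: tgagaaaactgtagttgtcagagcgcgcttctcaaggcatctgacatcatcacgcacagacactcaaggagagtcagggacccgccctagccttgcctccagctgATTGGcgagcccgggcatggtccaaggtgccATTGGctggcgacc
Cyp51: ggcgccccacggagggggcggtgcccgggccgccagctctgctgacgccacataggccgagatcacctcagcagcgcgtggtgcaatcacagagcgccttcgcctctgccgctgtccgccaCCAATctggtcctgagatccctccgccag
Nsdhl: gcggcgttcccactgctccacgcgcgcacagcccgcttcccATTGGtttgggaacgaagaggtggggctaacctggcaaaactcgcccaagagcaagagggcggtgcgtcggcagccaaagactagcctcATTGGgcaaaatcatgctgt
Srebf2: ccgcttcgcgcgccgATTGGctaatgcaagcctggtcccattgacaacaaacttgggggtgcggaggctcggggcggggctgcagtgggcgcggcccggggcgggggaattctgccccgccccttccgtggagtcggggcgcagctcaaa
Fasn: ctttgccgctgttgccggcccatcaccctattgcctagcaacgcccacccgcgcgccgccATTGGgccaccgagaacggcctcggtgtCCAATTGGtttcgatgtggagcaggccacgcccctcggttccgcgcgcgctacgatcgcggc
Elovl5: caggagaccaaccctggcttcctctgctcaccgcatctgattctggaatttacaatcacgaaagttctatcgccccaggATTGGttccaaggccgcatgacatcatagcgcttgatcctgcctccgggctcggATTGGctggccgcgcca
Of the 26 member genes, 22 (84.6%) held a CCAAT match within 250 bases before to 50 bases after a start site. The share was 41.7% of 15614 genes on the array with a listed promoter, and 42.1% of the 6236 of them at a level of 6 or more in at least 3 arrays. Median GC content was 61.9% in the members' promoters and 57.5% in those of the 15614 genes. It was 64.7% for the 17 members at 6 or more in at least 3 arrays and 61.3% for the 6236 genes. The part of GC content in the CCAAT shares was not tested. In Fasn a forward and a reverse match overlap. The annotated Fasn gene, on the minus strand, extends to chr11:120825166, so its listed start site and the window shown lie inside that span. TCACNCCAC was found in 1 of 26 members (3.85%) and in 1.40% of genes on the array, and its absence from the other windows says only that these exact letters are not there. These matches describe the sequence and were not tested as binding sites.

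Levels are log2 values after robust multi-array averaging (RMA), given in replicate order or as mean ± SD (n = 3), and a difference of 1 is a doubling. A gene was called where limma gave a Benjamini-Hochberg adjusted p under 0.05 over all 19938 genes and the log2 fold change was at least 1 in size. The median gene of an array lay between 4.90 and 5.01, so levels near 4 to 5 cannot be told from background, and a fold change against such a level understates the difference. All members were tested, and 22 of the 32 were at 6 or more in at least 3 arrays. All 8 measured macrophage markers were called higher in TZM and in microglia than in DC. Of 8 type 1 DC markers, 7 were called lower in TZM than in DC (Irf8 was not) and 8 lower in microglia than in DC. All 7 TZM markers were higher in TZM than in DC, and 6 were higher and Cx3cr1 lower (-1.87) in TZM than in microglia. All 8 microglia markers were lower in TZM than in microglia, and 3 of them were higher in TZM than in DC, Tmem119 by 4.64, P2ry12 by 4.98 and Fcrls by 1.29. Among the listed markers Mertk, Fcgr1 (CD64), Cd8a and Cx3cr1 (through its GFP reporter) were themselves used in sorting. Their differences against DC follow in part from the gates and are no independent check of identity. Other signals were not shared evenly by the arrays. Of 6 salivary gland markers 3 were called higher in TZM than in DC and than in microglia, and the other 3 were called in neither. Among the 3, Bpifa2 was at 10.24, 11.998 and 9.29 in TZM against 3.70 to 4.45 in the 6 other arrays, and TZM replicate 2 was the highest. That array correlated with the other TZM arrays at 0.986 and 0.982, and these with each other at 0.993. Of 5 measured T cell markers 1 was called higher in TZM than in DC (Cd28, at 9.19, 9.50 and 8.54 in TZM against 4.20 to 4.28 in DC) and 3 higher than in microglia, and of 5 B cell markers 2 were higher than in DC (Cd79b and Fcer2a), 1 lower than in DC and 2 higher than in microglia (Cd79a and Fcer2a). Microglia replicates 1 and 3 held the choroid plexus transcript Ttr at 12.15 and 11.83, against 5.48 in replicate 2. Ttr was the only 1 of 6 choroid plexus markers called higher in microglia than in DC, but all 6 had positive log2 fold changes there. Replicate 2 was the lowest microglia array also for Kcnj13 (6.75, 5.07 and 6.57), Folr1, Kl and Clic6, but not for Aqp1. All 6 neuronal markers lay below the array median in all 9 arrays, as did 4 of 7 oligodendrocyte and 4 of 7 astrocyte markers. Of the astrocyte markers 2 were called higher (Slc1a3, 3.53, and Slc1a2, 1.03) and 1 lower in TZM than in DC. In TZM against microglia only Slc1a2 of them was called (1.09), and microglia against DC gave 1 higher (Slc1a3, 2.70) and 1 lower. Of 5 endothelial markers 1 was called higher (Cdh5, 2.28) and 1 lower in TZM than in DC. Of 5 lymph node stroma markers only Ccl19 was called there (1.71). Cdh5 and Ccl19 were also higher in TZM than in microglia (2.42 and 2.90). The part of these signals in the levels below was not tested beyond leaving out single arrays.

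Most synthesis genes followed 1 order, highest in DC, intermediate in TZM and lowest in microglia. That order of means held for 19 of the 32 genes, against 19.2% of all genes and 24.4% of the 7678 genes at 6 or more in at least 3 arrays. The mean was highest in DC for 23 of the 32, against 31.9% of all genes and 39.1% of the 7678. It was lowest in microglia for 21, against 35.4% and 37.5%. The 32 genes were not filtered by level, so the shares of all genes are the like comparison. Neighbouring populations in this order often did not differ beyond their spread, as the single genes below show. The order rested on differences near 0 in Sqle (0.00094 in TZM against microglia) and Msmo1 (-0.00081 in TZM against DC), and Me1 lay below the array median in all arrays.

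**Figure D1:**
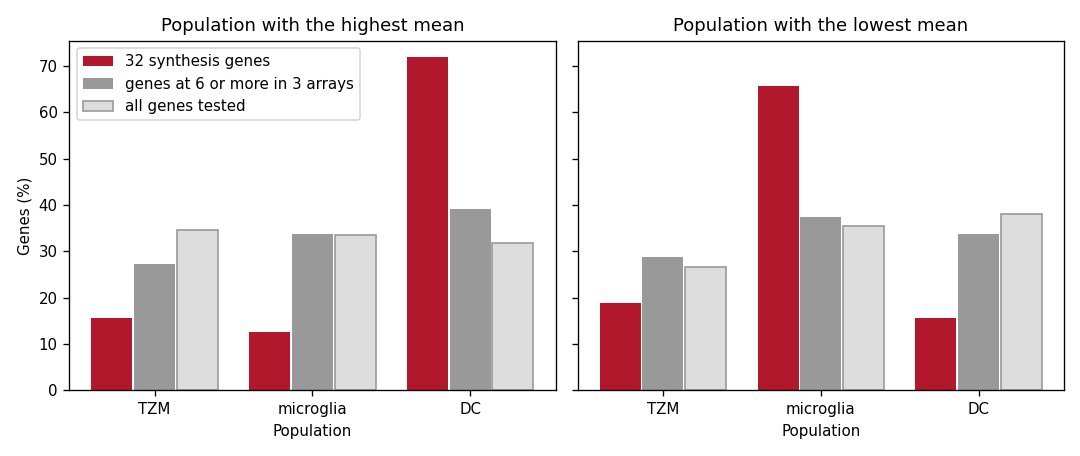
Share of genes (%) whose mean level was highest (left) or lowest (right) in each population, for the 32 synthesis genes, for the 7678 genes at 6 or more in at least 3 arrays and for all 19938 genes. DC had the highest mean for 23 of the 32 genes and microglia the lowest for 21.

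In TZM against DC, the comparison of the lymph node macrophage with a cell type of another lineage, 4 members were called lower (Idi1, Fdps, Sqle and Srebf2) and 2 higher (Scd1 and Fads1). Over all genes 8.74% were called, 4.03% lower and 4.71% higher. By adjusted p alone 13 members were lower and 3 higher, where 10.4% and 9.83% of all genes were. The 3 TZM arrays lay below all 3 DC arrays for 16 members and above them for 4, each of which holds for 16.1% of all genes. The median log2 fold change was -0.46 over the members and 0.015 over all genes. RNA levels in sorted populations do not tell fewer expressing cells from less RNA per cell.

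In TZM against microglia, the comparison of 2 tissue-resident macrophages, only Scd1 was called, higher in TZM, and no member was called lower by limma. Over all genes 7.65% were called, 4.25% higher and 3.40% lower. By adjusted p alone 9 members were higher and 1 lower, where 10.0% and 9.39% of all genes were. TZM arrays lay above all microglia arrays for 14 members and below them for 3, which holds for 15.8% and 14.7% of all genes. The median log2 fold change was 0.25 over the members and 0.012 over all genes. Of the 32 log2 fold changes 24 were positive and 8 negative. Several members lay just under the fold minimum, so that leaving out single arrays gave 1 to 3 calls higher and 0 to 1 lower.

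In microglia against DC, 11 members were called lower (Pmvk, Idi1, Fdps, Sqle, Cyp51, Nsdhl, Srebf2, Acaca, Fasn, Scd1 and Elovl5) and 1 higher (Fads1). Over all genes 11.2% were called, 6.01% lower and 5.15% higher. By adjusted p alone 16 members were lower and 1 higher, where 2606 (13.1%) and 2400 of the 19938 genes were. Microglia arrays lay below all DC arrays for 20 members and above them for 2, which holds for 19.0% and 18.8% of all genes. The median log2 fold change was -0.69 over the members and 0.0069 over all genes. These comparisons share arrays, so the values of TZM and of microglia against DC are not independent of each other.

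**Figure D2:**
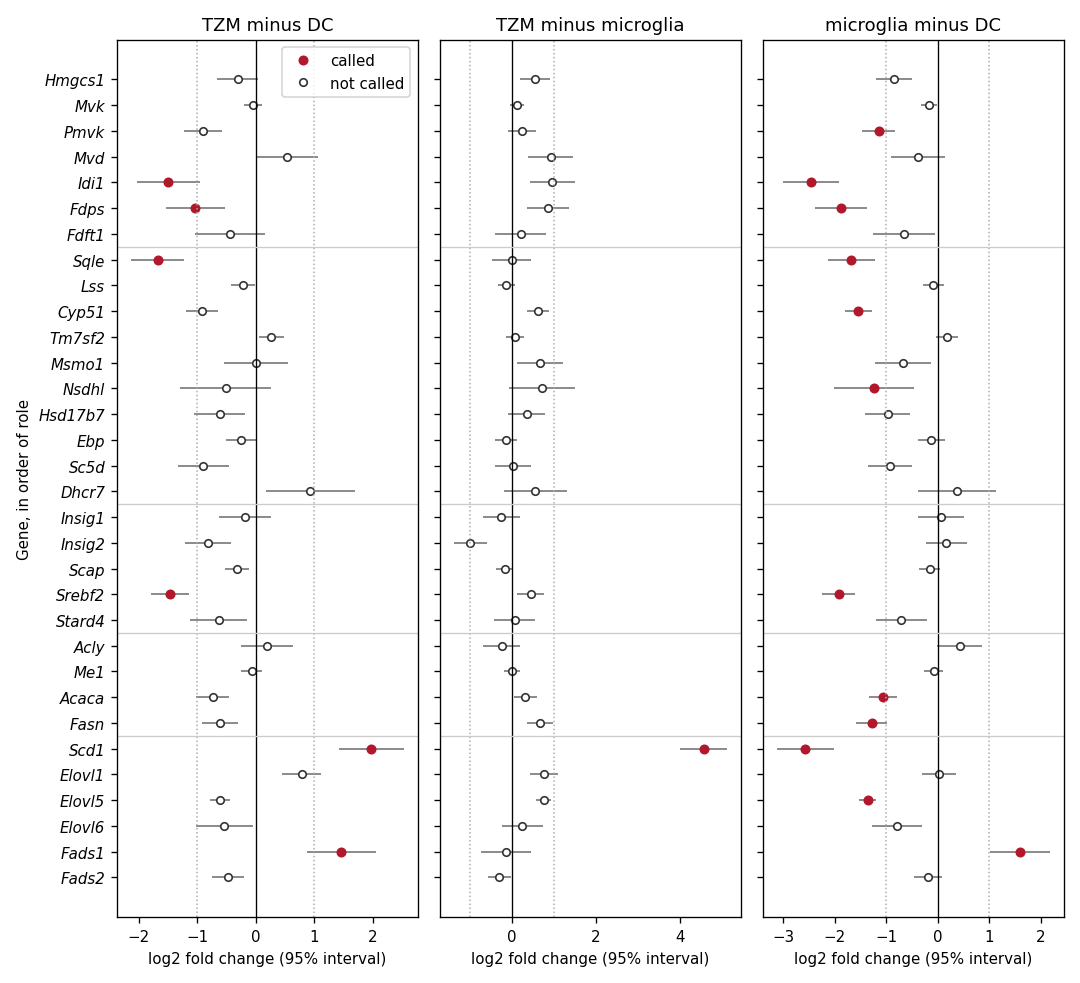
Log2 fold changes of the 32 genes in the 3 comparisons, with 95% intervals from the limma fit. Filled points are called genes, open points are not called, dotted lines mark a log2 fold change of 1 in either direction, and most points lie left of 0 against DC.

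The populations also differed in cell cycle genes, in the same order. Of 13 measured genes such as Mki67 and Top2a, 11 were called lower in TZM than in DC, 2 higher in TZM than in microglia and 12 lower in microglia than in DC. Their summed linear level ran from 578 to 682 in TZM, from 406 to 414 in microglia and from 1718 to 2094 in DC. Among 12 immediate early genes, known to be induced while tissue is dissociated, 9 were called lower in TZM than in microglia, 3 lower and 1 higher in TZM than in DC, and 6 higher in microglia than in DC. Summed levels of these ran from 12748 to 15985 in TZM, from 34311 to 36880 in microglia and from 16971 to 17327 in DC. The part of either in the levels of synthesis genes was not tested.

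Of the 7 mevalonate enzymes 2 were called lower in TZM than in DC, 3 lower in microglia than in DC and none between TZM and microglia, where 4 were higher by adjusted p alone. Their median log2 fold changes were -0.44, -0.86 and 0.55. Idi1, the isomerase that interconverts the isoprenoid building blocks, was at 4.91, 5.40 and 4.97 in TZM, at 4.42, 3.65 and 4.31 in microglia, and at 6.93, 6.48 and 6.36 in DC. No population overlapped another. The log2 fold change was -1.49 in TZM against DC (SE 0.24, adjusted p = 0.0021), -2.46 in microglia against DC (SE 0.24, adjusted p = 8.1e-05) and 0.97 in TZM against microglia (SE 0.24, adjusted p = 0.021), the last under the fold minimum. That value became a call without TZM replicate 1 (1.06), TZM replicate 3 (1.03), microglia replicate 1 (1.11) or microglia replicate 3 (1.06). A second, dimmer probe set of Idi1 gave -1.53 and -2.15 against DC, but 0.63 in TZM against microglia (adjusted p over all probe sets = 0.24). Levels in TZM and microglia lay near or below the array median, so background limits the comparison of these populations.

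Fdps, which joins these units into farnesyl diphosphate, a precursor of sterols and of protein prenyl groups, was at 6.30, 5.90 and 6.50 in TZM, at 5.63, 5.52 and 4.98 in microglia, and at 7.41, 7.44 and 6.95 in DC. Again the 3 populations did not overlap. TZM were lower than DC (-1.03, SE 0.22, adjusted p = 0.011). This call rests on the fold minimum, and the change was -0.86 without TZM replicate 2, -0.96 without DC replicate 1 and -0.94 without DC replicate 2. Microglia were lower than DC at -1.89 (SE 0.22, adjusted p = 0.00026). TZM against microglia stood at 0.86 (adjusted p = 0.026), and at 1.03 without TZM replicate 2, which is a call.

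Pmvk, the second kinase of the route, was at 5.02, 4.76 and 4.96 in TZM, at 4.85, 4.51 and 4.63 in microglia, and at 6.06, 5.83 and 5.55 in DC. All DC arrays lay above the 6 others, while TZM and microglia overlapped near the array median. The call was made for microglia against DC (-1.15, SE 0.14, adjusted p = 0.00038), and TZM against DC stood at -0.90 (SE 0.14, adjusted p = 0.0021). Without DC replicate 3 the TZM value was -1.03 and was called.

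The other mevalonate enzymes were not called. Hmgcs1, the synthase that feeds the route and carries the TCACNCCAC match shown above, was at 7.21 ± 0.26 in TZM, 6.66 ± 0.21 in microglia and 7.51 ± 0.14 in DC. TZM lay above microglia in all arrays (0.55, adjusted p = 0.036) and overlapped DC (-0.31, 95% interval -0.66 to 0.04). Mvd, the decarboxylase of the route, went against the common order, at 6.51, 5.84 and 6.71 in TZM, against 5.43 ± 0.31 in microglia and 5.81 ± 0.11 in DC. Here TZM replicate 2 stood low, and the log2 fold change against microglia was 0.92 with it (adjusted p = 0.022) and 1.18 without it (adjusted p = 0.0021), which is a call. Without microglia replicate 2 it was 1.10 and also called. Mvk, the first kinase, stayed between 5.64 and 5.96 in all 9 arrays.

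Fdft1, squalene synthase, depended on the probe set. The brightest was at 7.66 ± 0.49 in TZM, 7.44 ± 0.31 in microglia and 8.10 ± 0.28 in DC, with no call. The dimmer one, at 5.75, 5.48 and 5.81 in TZM, 5.97, 5.92 and 6.18 in microglia, and 6.85, 7.09 and 6.58 in DC, gave -1.16 for TZM against DC (SE 0.15, adjusted p over all probe sets = 0.0014). In it DC lay above every other array. The microglia difference from DC was -0.66 in the brightest probe set and -0.82 in the dimmer one.

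**Figure D3:**
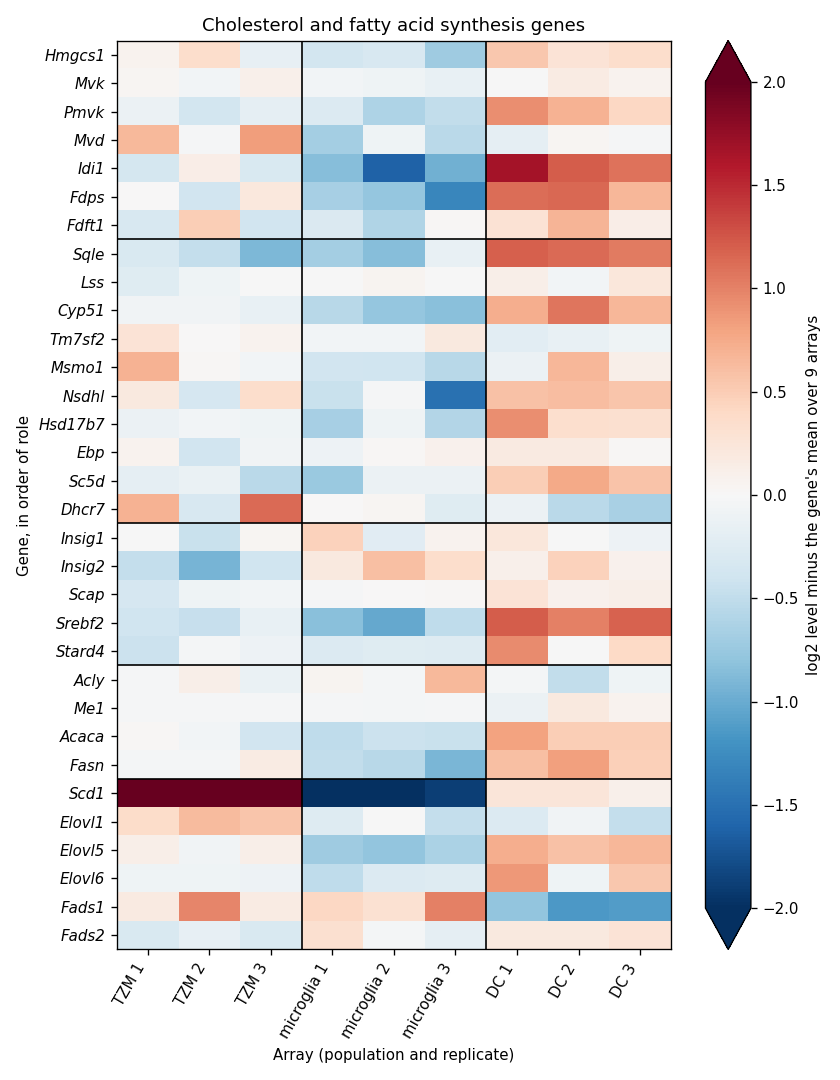
Level of each of the 32 genes (rows, in order of role, black lines between roles) in each of the 9 arrays (columns), as the log2 level minus the gene's mean over all arrays. Colours stop at 2 in either direction, which Scd1 passes upward in all TZM arrays and downward in 2 microglia arrays, and the DC columns are the reddest for most sterol genes.

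Of the 10 enzymes from squalene to cholesterol 1 was called lower in TZM than in DC, 3 lower in microglia than in DC and none between TZM and microglia, where 1 was higher by adjusted p alone. Among them Sqle, Cyp51, Nsdhl, Hsd17b7 and Sc5d had every DC array above every TZM and microglia array. Sqle, squalene epoxidase, a rate-limiting enzyme of the late route, was at 5.29, 5.12 and 4.70 in TZM, at 4.92, 4.74 and 5.45 in microglia, and at 6.79, 6.73 and 6.63 in DC. TZM and microglia overlapped fully and every DC array was above them. The log2 fold change against DC was -1.68 in TZM (SE 0.20, adjusted p = 0.00041) and -1.68 in microglia (SE 0.20, adjusted p = 0.00031). Between TZM and microglia the 95% interval of the difference ran from -0.46 to 0.46.

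Cyp51, the lanosterol demethylase, was at 5.97, 5.97 and 5.89 in TZM, at 5.48, 5.26 and 5.22 in microglia, and at 6.77, 7.11 and 6.71 in DC. The 3 populations were fully apart. Microglia were lower than DC at -1.54 (SE 0.12, adjusted p = 1.8e-05). TZM were between, at -0.92 against DC (SE 0.12, adjusted p = 0.00058) and 0.62 against microglia (SE 0.12, adjusted p = 0.0056), both under the fold minimum.

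Nsdhl, which acts in the removal of methyl groups from the sterol ring, was at 7.57, 7.05 and 7.73 in TZM, at 6.94, 7.35 and 5.90 in microglia, and at 7.97, 7.996 and 7.93 in DC. Microglia replicate 3 stood far below the other 2 microglia arrays. Microglia were called lower than DC (-1.23, SE 0.34, adjusted p = 0.028). Leaving out microglia replicate 2 kept the call (-1.55, adjusted p = 0.0093), whereas the adjusted p was 0.053 without microglia replicate 1 and 0.079, 0.078 and 0.074 without DC replicates 1, 2 and 3. Without microglia replicate 3 the log2 fold change was -0.82 (adjusted p = 0.027), under the fold minimum.

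The other 7 late enzymes were not called with all arrays. Sc5d, the desaturase that makes 7-dehydrocholesterol, was at 6.85 ± 0.23 in TZM, 6.81 ± 0.37 in microglia and 7.74 ± 0.13 in DC, and every DC array was above the 6 others (-0.89 in TZM and -0.93 in microglia against DC, adjusted p = 0.0095 and 0.0061). The microglia value became a call with array weights (-1.01) and without microglia replicate 2 or 3 (-1.04 each). Hsd17b7, which acts with Nsdhl, was at 6.24 ± 0.02 in TZM, 5.89 ± 0.31 in microglia and 6.86 ± 0.35 in DC, again with DC apart from both. Microglia against DC stood at -0.98 (adjusted p = 0.0056) and became a call with median centring and without DC replicate 2 (-1.07), DC replicate 3 (-1.08) or microglia replicate 2 (-1.16). Msmo1, a sterol methyl oxidase, was at 6.91 ± 0.42 in TZM, 6.24 ± 0.09 in microglia and 6.91 ± 0.40 in DC, with every microglia array below the 6 others. Dhcr7, the enzyme of a last step to cholesterol, was at 6.39, 5.37 and 6.82 in TZM, against 5.63 ± 0.15 in microglia and 5.26 ± 0.28 in DC. Its difference between TZM and DC was 0.94 (adjusted p = 0.088), and without TZM replicate 2 it was 1.35 (adjusted p = 0.0016). For Ebp, the sterol isomerase, and for Tm7sf2, a sterol reductase, the population means of each gene differed by at most 0.27. Lss, lanosterol synthase, lay below the array median in all 9 arrays, so its level could not be told from background.

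Of the 5 genes of sterol sensing and transport only Srebf2 was called, lower in TZM and in microglia than in DC. It was at 6.99, 6.93 and 7.25 in TZM, at 6.56, 6.37 and 6.89 in microglia, and at 8.61, 8.40 and 8.57 in DC. Every DC array lay more than a doubling above every other array, and the lowest TZM array was just above the highest microglia array. The log2 fold change was -1.47 in TZM (SE 0.14, adjusted p = 0.00011) and -1.93 in microglia (SE 0.14, adjusted p = 1.5e-05) against DC, and 0.46 between TZM and microglia (adjusted p = 0.057).

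The genes of the proteins that hold or carry SREBP-2 were not called. Insig1, which is itself a target of the pathway and retains SCAP when sterols are plentiful, was at 8.28, 7.83 and 8.32 in TZM, at 8.74, 8.06 and 8.35 in microglia, and at 8.51, 8.28 and 8.18 in DC. The 3 populations overlapped, and the 95% intervals reached no further than -0.69 and 0.51 in any comparison. Insig2, its less sterol-responsive relative, was at 6.21, 5.76 and 6.29 in TZM, at 6.88, 7.29 and 7.05 in microglia, and at 6.78, 7.15 and 6.78 in DC. Every TZM array was below the 6 others, by -0.82 against DC (SE 0.17, adjusted p = 0.0093) and -0.99 against microglia (SE 0.17, adjusted p = 0.0038). The second value crossed the fold minimum with median centring (-1.01), with quantile normalization (-1.04) and without TZM replicate 1 (-1.05), TZM replicate 3 (-1.09) or microglia replicate 1 (-1.08), and narrowly without microglia replicate 3.

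Scap was at 7.32, 7.56 and 7.61 in TZM, at 7.63, 7.67 and 7.68 in microglia, and at 7.93, 7.74 and 7.78 in DC. The order was complete between arrays but the differences were small, -0.32 for TZM against DC (adjusted p = 0.035) and -0.16 for both steps between. Stard4, a carrier of cholesterol between membranes, was near the array median in TZM (4.99 ± 0.21) and microglia (4.92 ± 0.02) and at 6.12, 5.17 and 5.58 in DC. Every DC array was above the rest, with an adjusted p of 0.077 for TZM and 0.043 for microglia against DC.

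**Figure D4:**
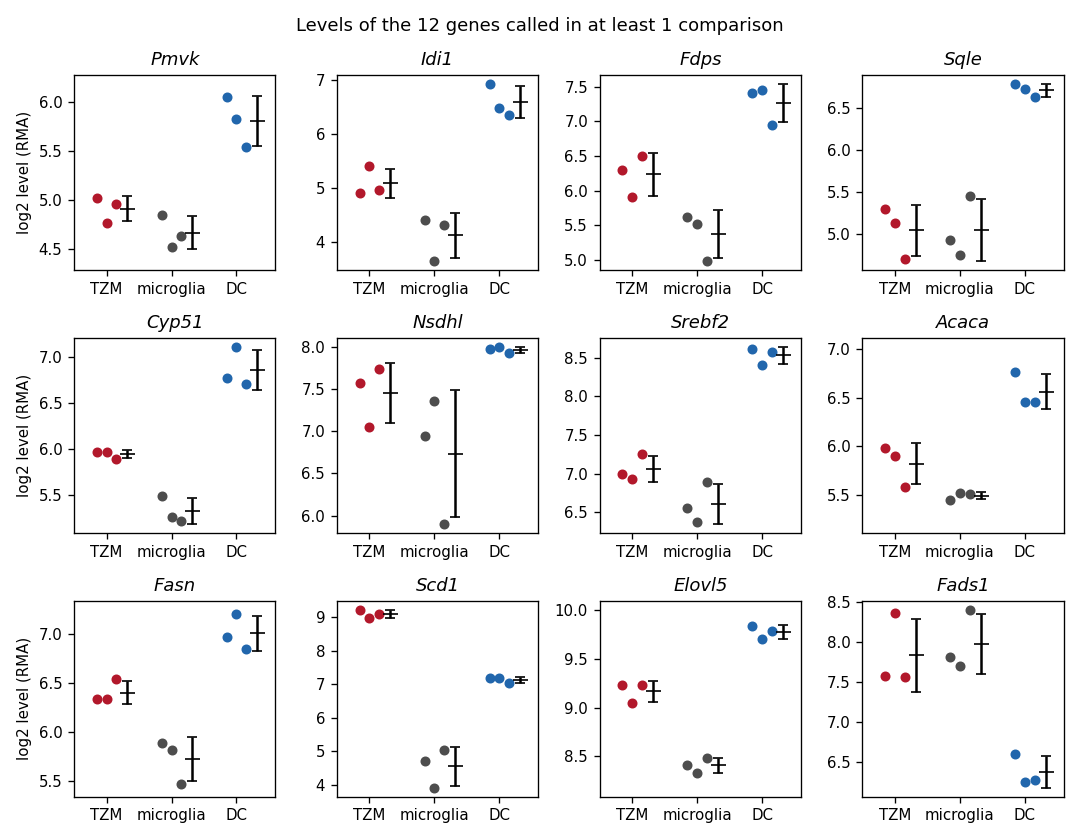
Log2 level (RMA) in each array of the 12 genes called in at least 1 comparison, with mean and SD at the right of each population. DC lie above TZM and microglia for all but Scd1, which is highest in TZM, and Fads1, which is lowest in DC.

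Of the 4 genes that build fatty acids 2 were called lower in microglia than in DC, and 2 were lower in TZM than in DC by adjusted p alone. Fasn, fatty acid synthase, was at 6.33, 6.33 and 6.54 in TZM, at 5.88, 5.81 and 5.47 in microglia, and at 6.97, 7.20 and 6.85 in DC, and no population overlapped another. Microglia were lower than DC at -1.29 (SE 0.13, adjusted p = 0.00012). TZM stood between, at -0.61 against DC (SE 0.13, adjusted p = 0.011) and 0.68 against microglia (SE 0.13, adjusted p = 0.0071).

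Acaca, acetyl-CoA carboxylase 1, which makes the malonyl-CoA that Fasn uses, was at 5.98, 5.90 and 5.58 in TZM, at 5.46, 5.52 and 5.51 in microglia, and at 6.76, 6.45 and 6.46 in DC. The order between arrays was complete in this, the brightest probe set. Microglia were lower than DC at -1.06 (SE 0.12, adjusted p = 0.00023), or -0.96 without DC replicate 1, and TZM stood at -0.74 against DC (SE 0.12, adjusted p = 0.0026). In a second, dimmer probe set TZM (4.05, 4.98 and 4.61) overlapped both DC (5.69, 4.36 and 5.44) and microglia (4.06, 3.26 and 3.73). It gave -0.62 for TZM and -1.48 for microglia against DC (adjusted p over all probe sets = 0.39 and 0.033). Acly, which makes cytosolic acetyl-CoA from citrate, was not called and was at 7.22 ± 0.13 in TZM, 7.45 ± 0.37 in microglia and 7.03 ± 0.25 in DC. Me1, malic enzyme and a source of NADPH, was below the array median in all arrays.

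Of the 6 desaturases and elongases 2 were called higher in TZM than in DC, 1 higher in TZM than in microglia, and 1 higher and 2 lower in microglia than in DC. Scd1, the stearoyl-CoA desaturase that makes oleate and palmitoleate, was at 9.22, 8.99 and 9.12 in TZM, at 4.70, 3.92 and 5.04 in microglia, and at 7.18, 7.18 and 7.03 in DC. Each population was more than a doubling away from the next, and the microglia values were at the background end of the scale. TZM were higher than microglia by 4.55 (SE 0.24, adjusted p = 4.0e-06) and higher than DC by 1.98 (SE 0.24, adjusted p = 0.00049), and microglia were lower than DC at -2.57 (SE 0.24, adjusted p = 7.4e-05).

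Fads1, the desaturase that makes arachidonic acid, was at 7.58, 8.37 and 7.56 in TZM, at 7.81, 7.70 and 8.40 in microglia, and at 6.60, 6.25 and 6.27 in DC. All DC arrays were below the 6 others, and TZM and microglia overlapped. TZM were higher than DC by 1.46 (SE 0.26, adjusted p = 0.0036) and microglia by 1.60 (SE 0.26, adjusted p = 0.0017). Fads2, the desaturase that acts before it, was near the array median, at 4.60 ± 0.09 in TZM, 4.89 ± 0.25 in microglia and 5.08 ± 0.05 in DC, with every TZM array under every DC array (-0.48, adjusted p = 0.022).

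Elovl5, which elongates polyunsaturated chains, was at 9.23, 9.05 and 9.23 in TZM, at 8.41, 8.33 and 8.48 in microglia, and at 9.84, 9.70 and 9.79 in DC. The populations were fully apart with small spread. Microglia were lower than DC at -1.36 (SE 0.08, adjusted p = 2.7e-06), and TZM were at -0.61 against DC (adjusted p = 0.00052) and 0.76 against microglia (adjusted p = 0.00016). Elovl1, which makes very long saturated chains, had another order, at 10.09 ± 0.14 in TZM, 9.33 ± 0.24 in microglia and 9.31 ± 0.20 in DC. All TZM arrays were above the 6 others (0.78 against DC, adjusted p = 0.0050, and 0.77 against microglia, adjusted p = 0.0061), under the fold minimum. Elovl6, which extends palmitate to stearate, was at 4.44 in all TZM arrays, 4.19 ± 0.14 in microglia and 4.98 ± 0.49 in DC, close to background. Without DC replicate 2, microglia were called lower than DC (-1.06).

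Of 24 further sterol genes listed, 15 were measured here, with 3 called higher and 2 lower in TZM than in DC, 1 higher and 0 lower in TZM than in microglia, and 2 higher and 1 lower in microglia than in DC. The median log2 fold change of TZM against DC was 0.22, against -0.46 over the members. Npc1, which exports cholesterol from the lysosome, was higher in TZM (2.44, adjusted p = 1.9e-06) and in microglia (1.80, adjusted p = 8.6e-06) than in DC. Cyp27a1, a sterol hydroxylase of mitochondria, was lower in TZM (-2.08, adjusted p = 0.00013) and in microglia (-2.49, adjusted p = 3.0e-05). Lbr, a sterol reductase of the nuclear envelope, was lower in TZM than in DC (-1.22, adjusted p = 0.013), and the lipoprotein receptor Vldlr was higher in TZM than in DC (1.31, adjusted p = 0.0048) and than in microglia (1.18, adjusted p = 0.0086). Stard3, a late endosomal sterol carrier, was higher in microglia than in DC (1.49, adjusted p = 3.7e-05).

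Srebf1, the partner of Srebf2 that drives fatty acid genes, was at 7.43, 6.53 and 7.18 in TZM, at 6.23, 6.23 and 6.38 in microglia, and at 6.16, 6.08 and 6.27 in DC. All TZM arrays were above the 6 others, the reverse of the place TZM held for Srebf2 against DC. The log2 fold change was 0.88 against DC (SE 0.20, adjusted p = 0.014) and 0.77 against microglia (SE 0.20, adjusted p = 0.027), neither reaching the fold minimum. TZM replicate 2 was the lowest of the TZM arrays, as it was for Mvd, Fdps and Dhcr7. It was the highest of them for Hmgcs1, Idi1, Fdft1, Fads1 and Elovl1, and 16 of the 32 members lay above their TZM mean in it.

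Of 30 further fatty acid genes listed, 28 were measured, with 2 called higher and 1 lower in TZM than in DC, 0 higher and 4 lower in TZM than in microglia, and 5 higher and 0 lower in microglia than in DC. Scd2, the related desaturase, was higher in TZM than in DC (1.22, adjusted p = 0.0087). Thrsp and Mid1ip1, whose products promote lipid synthesis, and Mlxipl, which encodes the sugar-responsive factor ChREBP, were lower in TZM than in microglia (-2.44, -1.65 and -1.16, adjusted p = 1.5e-05, 0.00060 and 3.7e-05). Thrsp, Mid1ip1 and Mlxipl were also higher in microglia than in DC (2.53, 1.75 and 1.21, adjusted p = 7.1e-06, 0.00027 and 1.6e-05), while Fasn, Acaca and Scd1 were lower there. Hacd2, a dehydratase of chain elongation, was lower in TZM than in DC (-1.69, adjusted p = 0.0043) and than in microglia (-1.05, adjusted p = 0.044), and its relative Hacd4 was higher in TZM (1.38, adjusted p = 0.016) and in microglia (1.27, adjusted p = 0.019) than in DC. Acss1, which makes acetyl-CoA from acetate in mitochondria, was higher in microglia than in DC (1.32, adjusted p = 0.0090).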

How the data were processed

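The deposited table held log2 levels of 35556 probe sets in 9 samples, made by the authors with Affymetrix Expression Console 1.3.1 and RMA per the submitters' processing notes. In the platform annotation 21789 probe sets carried 1 symbol, 1621 carried several and 12146 carried none. Each of the 19938 genes was read from its brightest single-symbol probe set. One limma model (version 3.58.1, R 4.3.3) over the 9 arrays, with population as its term, gave the differences, SEs, 95% intervals and Benjamini-Hochberg adjusted p over all genes. It was tested on simulated data first. No detection call was used, and the number of arrays limits the precision.

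The members, their roles and all lists were chosen with earlier results of these data known. All members are named, with every array for called members and 6 fixed genes. Of the companion lists up to 4 called genes per comparison with the largest change are named, with Mlxipl added in microglia against DC, and Srebf1 whatever its value. Other listed genes were not analysed here. Alternatives were other call rules, level filters, centring, quantile normalization, probe set choices, fits and each array left out. Replicate numbers were not used to pair the samples, except in a fit with a replicate block.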

Additional observations from a re-analysis of the deposited data

How the results depend on the processing

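Without the fold minimum, TZM against DC gave 13 members lower and 16 in all (4025 of all genes), TZM against microglia 9 higher, 1 lower and 10 in all (3873 genes), and microglia against DC 5006 genes. In TZM against microglia, median centring and quantile normalization each gave 1 member lower and 2 in all, Insig2 joining Scd1, and array weights gave 2 higher and 2 in all, Mvd joining. Leaving out 1 array gave 1 to 3 members higher, 0 to 1 lower and 1 to 3 in all there. In TZM against DC such fits gave 3 to 5 members lower, and in microglia against DC 9 to 13. Members with no overlap ranged from 3 to 5 for TZM below microglia and from 2 to 4 for microglia above DC, and under level filters of 5 or 6 in at least 3 arrays these counts were 2 and 1. With the filter of 6 the median of microglia against DC was -0.95, but Idi1, Sqle, Cyp51 and Acaca pass that filter through the DC arrays alone, so this median is no support for the difference. Array weights ended the Fdps call in TZM against DC (-0.91) and made one for Dhcr7 (1.11).

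Values near 0 changed sign without being called. With array weights Msmo1 was 0.16 in TZM against DC. In TZM against microglia, Sqle was -0.022 with median centring and -0.016 with quantile normalization, Me1 -0.014 and -0.013 with these, Sc5d -0.018 with quantile normalization and Fdft1 -0.063 with the mean of probe sets. Elovl1 was -0.006 in microglia against DC with median centring. With single arrays left out, TZM against DC ranged from -0.24 to 0.22 for Msmo1, -0.092 to 2e-04 for Mvk and -0.15 to 0.0087 for Me1. TZM against microglia ranged from -0.15 to 0.21 for Sqle, -0.17 to 0.17 for Sc5d, -0.063 to 0.37 for Fdft1, -0.0048 to 0.19 for Stard4 and -0.40 to 0.079 for Fads1. Microglia against DC ranged from -0.10 to 0.14 for Elovl1 and -0.11 to 0.23 for Insig1. The causes were not tested.

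Same-numbered arrays showed little shared deviation from their population means (correlations from -0.15 to 0.13). These means rest on 3 arrays each, so the values cannot show whether same-numbered samples were collected together. With a replicate block 6, 1 and 11 members were called in TZM against DC, TZM against microglia and microglia against DC, the last without Nsdhl (adjusted p = 0.056, and 0.052 in a fit of the compared groups alone). Precision is limited by 3 arrays per population and, for members with levels near 4 to 5, by background.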

Other observations

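Of 15 listed and measured genes that assemble phospholipids and neutral lipids, 6 were called higher and 1 lower in TZM than in DC, 3 higher and 2 lower in TZM than in microglia, and 3 higher and 1 lower in microglia than in DC. The median log2 fold change in TZM against DC was 0.60 over this list and -0.46 over the synthesis genes, a difference that was not tested. Lpcat2, which remodels phosphatidylcholine and makes platelet-activating factor, was at 10.50, 10.11 and 10.51 in TZM, at 11.30, 11.30 and 11.07 in microglia, and at 7.27, 6.47 and 6.86 in DC. Both macrophage populations were far above DC (3.51 and 4.36, limma adjusted p = 4.1e-06 and 8.1e-07).

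Lpcat3, an LXR target that places polyunsaturated chains into phospholipids, was also higher than in DC, by 1.56 in TZM and 2.11 in microglia (adjusted p = 7.0e-06 and 8.3e-07). Chka, of phosphatidylcholine synthesis, was higher in TZM than in DC (1.65, adjusted p = 2.1e-05) and than in microglia (1.33, adjusted p = 9.5e-05). Plin2, which coats lipid droplets, was at 9.78, 9.54 and 9.59 in TZM, at 7.44, 7.10 and 7.35 in microglia, and at 8.97, 8.74 and 8.87 in DC. The 3 populations were fully apart in the order of Scd1, with TZM higher than microglia by 2.34 (adjusted p = 1.7e-06) and microglia lower than DC at -1.57 (adjusted p = 1.1e-05). Dgat2, which makes triglyceride, was higher in TZM than in microglia (1.25, adjusted p = 0.010), and Lpin2, a phosphatidate phosphatase, was higher in microglia than in DC (1.45, adjusted p = 2.7e-07). Agpat3, an acyltransferase of phospholipid synthesis, was lower in TZM than in DC (-1.95, adjusted p = 8.7e-05) and than in microglia (-1.13, adjusted p = 0.0024).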
